A study of Mus musculus with 6 samples.

Results

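Hipk1, Hipk2, Hipk3 and Hipk4 encode the homeodomain-interacting protein kinases, and the values of every Affymetrix probe set that carries exactly 1 of these gene symbols were examined. It found 3 of the 4 genes, among 18193 genes measured, and 13 of the 45037 probe sets tested: 3 for Hipk1, 8 for Hipk2, 2 for Hipk3 and 0 for Hipk4, so Hipk4 has no value here. The genes were chosen with the EBF minus control differences of these same arrays known, so those differences are given as a description with no test. All samples were mouse pro-B cells without Pax5 (Pax5-/-), grown with 5 ng/ml IL-7 on a layer of ST2 stromal cells, which derive from bone marrow. In the EBF group, 3 arrays, the cells had received the EBF retrovirus, Mig-EBF. In the control group, 3 arrays, they had received the control retrovirus, MigR1. Cells of both groups were sorted for GFP 2 days after infection, which selects transduced cells, and EBF was expressed from a virus. Arrays carry the replicate numbers of the labels (EBF 1 to 3, control 1 to 3), and nothing there says that replicates were separate cultures.

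Homeodomain-interacting protein kinases are serine/threonine kinases of the nucleus, related to the DYRK kinases. They phosphorylate transcription factors and corepressors. Hipk2 is best known for phosphorylating p53 after DNA damage, which favours apoptosis, and for triggering the degradation of the corepressor CtBP. The amount of Hipk2 protein is held low by ubiquitin ligases of the Siah family and by Wsb1, a level of control that arrays do not read. EBF is a DNA-binding factor needed for early B cell development, and Pax5 acts with it to establish the B lineage.

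The deposited values are linear intensities. Intensities of different probe sets are not on a common scale, so each Hipk probe set was compared only with itself across arrays. Median array intensity lay between 424.3 and 451.3. The 27 probe sets for Bacillus transcripts, which serve as a low reference, had array medians of 97.6 to 108.0 and reached 410.4. Differences between groups are on the log2(intensity + 32) scale, EBF minus control, with limma's standard error. None of 5 Ebf1 probe sets passed the limma threshold (adjusted p below 0.05) in either direction, with differences of -0.33 to 0.12. Nor did any of 2 Pax5 probe sets (-0.07 and 0.11). Whether these probe sets lie in the viral insert or the deleted exons is not known here, so they do not check the labels. Of 13 pro-B genes, all were above the highest Bacillus control, among them Vpreb1 and Igll1, which encode the surrogate light chain.

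Hipk2 intensities were higher in the EBF arrays at 4 probe sets by about a log2 unit or more, and at the remaining 4 by far less. Probe set 1428433_at read 2176.9, 2135.4 and 2328.1 in EBF 1 to 3, against 888.5, 781.7 and 963.6 in control 1 to 3. The lowest EBF array was thus well above the highest control array. The log2 difference was 1.31 ± 0.09 (SE, n = 3 arrays per group), and the ratio of mean intensities was 2.52. Probe set 1456022_at read 1386.4, 1308.7 and 1215.8 in the EBF arrays, against 577.5, 504.6 and 613.3 in the controls. Here too the groups did not overlap, and the log2 difference was 1.16 ± 0.09 (SE, n = 3 per group).

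Probe set 1424863_a_at gave the largest Hipk2 difference, 1.40 ± 0.15 (SE, n = 3 per group). Its intensities were 1745.5, 1547.3 and 1115.7 in EBF 1 to 3, against 537.6, 480.1 and 574.5 in control 1 to 3. EBF 3 was the lowest of the EBF arrays but still above every control. Probe set 1425983_x_at had 1733.8, 1446.2 and 1187.1 in the EBF arrays and 704.5, 696.7 and 716.6 in the controls, a ratio of mean intensities of 2.06 (SE of the log2 difference 0.12, n = 3 per group). The controls of this probe set were close together (coefficient of variation 1.4%), whereas the EBF arrays spread more widely (18.8%). The suffix _x_at marks a probe set in which some probes may also bind other transcripts, and _a_at marks one whose probes match several transcripts of the same gene.

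Smaller differences were seen at the other Hipk2 probe sets. Probe set 1448631_a_at read 2305.6, 1844.7 and 1685.8 in the EBF arrays and 1546.8, 1617.9 and 1411.1 in the controls. The groups did not overlap, with EBF 3 close above control 2, and the log2 difference was 0.33 ± 0.12. Probe set 1429566_a_at read 2062.1, 1790.3 and 1380.3 in EBF 1 to 3, against 1388.2, 1374.5 and 1113.7 in control 1 to 3. EBF 3 lay within the range of the controls there, and the log2 difference was 0.41 ± 0.15 (SE, n = 3 per group).

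The last Hipk2 pair was dim. Probe set 1424864_at had 307.2, 268.0 and 312.1 in the EBF arrays and 270.2, 272.7 and 280.0 in the controls, with overlapping groups and a log2 difference of 0.10 ± 0.08. Probe set 1432523_at had 90.1, 66.2 and 83.9 in the EBF arrays and 69.7, 75.3 and 68.5 in the controls (log2 0.11 ± 0.09). Its mean was below the median Bacillus control, a level at which no signal can be told from background, and the mean of 1424864_at was below the highest Bacillus control.

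**Figure D1:**
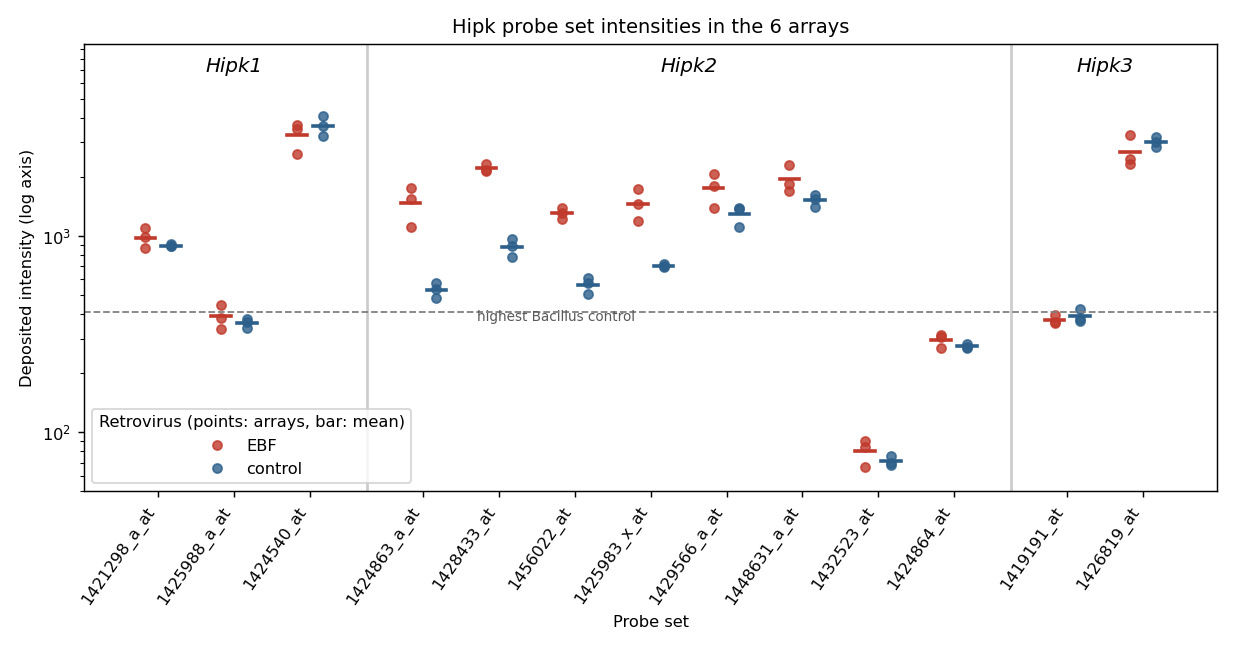
Deposited intensity on a log axis for each of the 13 Hipk probe sets, with EBF arrays (red) to the left of control arrays (blue), a point per array and a bar at the mean of 3. The EBF points lie clear above the controls at 4 Hipk2 probe sets, while the dashed line marks the highest Bacillus control intensity, 410.4.

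Counted over all members, 4 of 13 probe sets, all Hipk2 and all higher, passed limma's threshold, where 0.875% of all probe sets passed in either direction and 0.344% passed as higher. Since the members were chosen on this contrast, nothing is read from that share. The EBF and control arrays did not overlap at 5 of the 8 Hipk2 probe sets, all higher in EBF, and 15.5% of all probe sets had EBF arrays above every control. When the fit also took the replicate number as a block, 1429566_a_at was added, giving 5 probe sets, and 4.88% of all probe sets were then higher. All 8 Hipk2 differences were positive, from 0.10 to 1.40, with a median of 0.70. The median over all probe sets was 0.025. In RNA pooled from many sorted cells, a larger share of cells that express Hipk2 and more Hipk2 RNA per cell cannot be told apart.

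**Figure D2:**
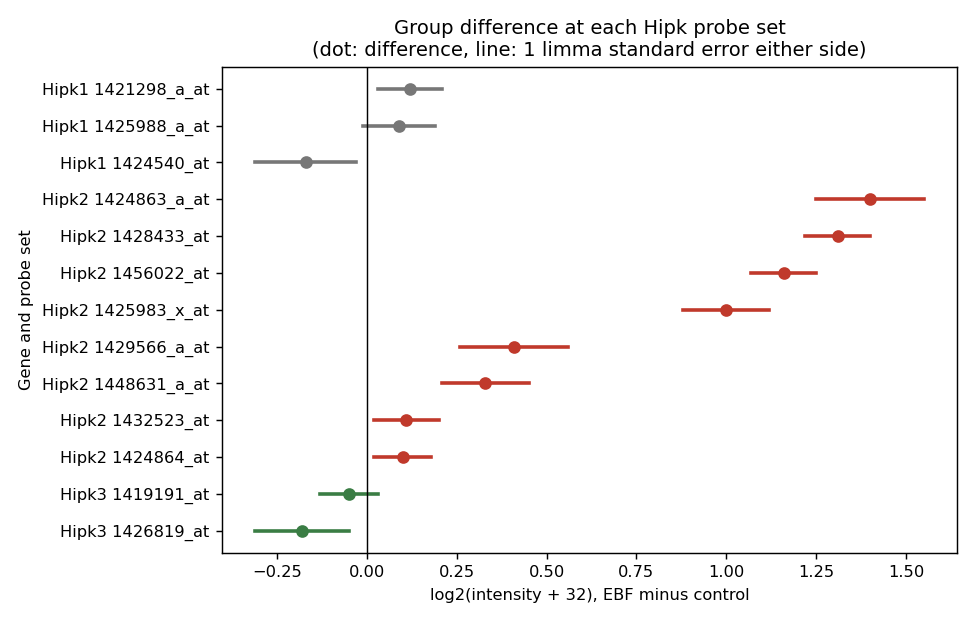
EBF minus control difference on the log2(intensity + 32) scale for each Hipk probe set, grouped by gene from top to bottom, with a line of 1 limma standard error either side of each dot (n = 3 arrays per group). Hipk2 probe sets run from 0.10 to 1.40, and those of Hipk1 and Hipk3 lie between -0.18 and 0.12.

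Disagreement among the probe sets of Hipk2 was wide. The highest and lowest log2 differences lay 1.30 apart. Over the 52 genes with 8 or more probe sets, the median of this range was 0.51, and Hipk2 had the widest; the next were Ntrk3 with 0.84 and Mbp with 0.83. Among 856 genes with 5 or more probe sets the median range was 0.35, and 4 genes, Hipk2 included, reached 1.30 or more. The platform's table gives 1424863_a_at and 1424864_at the same source sequence, yet their log2 differences were 1.40 and 0.10. The mean of 1424864_at was below the highest Bacillus control, so the gap between them is not a measured size. The low end of the Hipk2 range comes from this probe set and 1432523_at, which was dim too. Over the 6 Hipk2 probe sets with means above that control the range was 1.06. In 291 genes with 5 or more such probe sets the median was 0.33, and 4 of them, Hipk2 included, reached at least the Hipk2 range. These comparisons describe a gene picked for its difference and carry no test. Where each probe set lies in the Hipk2 transcripts was not analysed here.

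**Figure D3:**
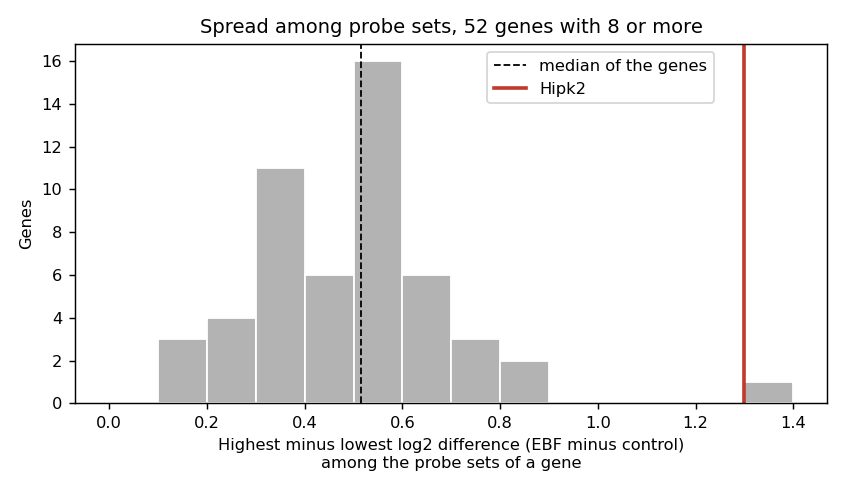
Histogram of the range of log2 differences (highest minus lowest, EBF minus control) among the probe sets of a gene, for the 52 genes with 8 or more probe sets, with the number of genes on the vertical axis. The dashed line is the median, 0.51, and the red line is Hipk2 at 1.30, to the right of every other gene.

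The EBF arrays did not rank alike at every Hipk2 probe set. Against the mean of the controls, 1424863_a_at was higher by 1.66, 1.49 and 1.03 on the log2 scale in EBF 1, EBF 2 and EBF 3. At 1425983_x_at EBF 1 was higher by 1.26 and EBF 3 by 0.72, with EBF 2 between them. EBF 3 was thus the lowest of the 3 at these probe sets, but at 1428433_at it was the highest, with 1.28, 1.26 and 1.38. EBF 1 was the highest and EBF 3 the lowest array at 6 of the 6 Hipk probe sets of the _a_at and _x_at kinds, Hipk1 included, against 21.7% of all such probe sets. Among the 7 of the _at kind this held for 2, against 22.3% of all. These orders were counted after the values were seen. At the 4 probe sets with large differences the groups did not overlap, so under any pairing of arrays every EBF array is higher. Set against the control of its own number, the size was 0.92 to 1.64 at 1424863_a_at and 1.25 to 1.41 at 1428433_at. It was 0.95 to 1.32 at 1456022_at and 0.70 to 1.26 at 1425983_x_at.

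**Figure D4:**
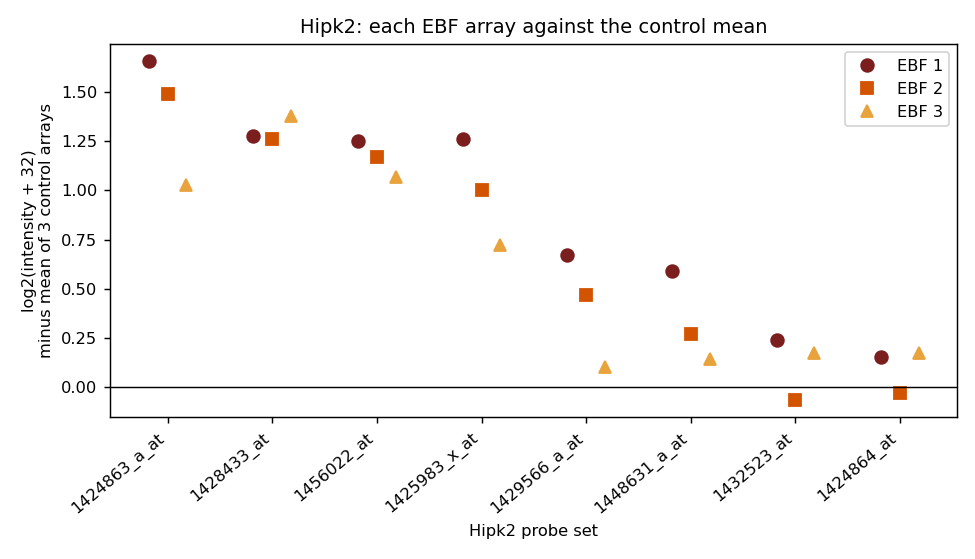
Log2(intensity + 32) of each EBF array minus the mean of the 3 control arrays (vertical axis) at the 8 Hipk2 probe sets, with a marker per array. EBF 3 is the lowest of the EBF arrays at 1424863_a_at (1.03) and the highest at 1428433_at (1.38).

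Hipk1, a close relative of Hipk2 that also acts on p53 and on the nuclear body protein Daxx, had overlapping groups at all 3 probe sets. The brightest, 1424540_at, read 3511.6, 2620.0 and 3660.0 in the EBF arrays and 3649.0, 3240.5 and 4064.6 in the controls, with a log2 difference of -0.17 ± 0.14. EBF 2 was the lowest array there. At 1421298_a_at the intensities were 1091.2, 986.9 and 866.5 in EBF 1 to 3 and 905.1, 886.9 and 889.0 in control 1 to 3 (log2 0.12 ± 0.09). The controls lay within the range of the EBF arrays. The remaining Hipk1 probe set, 1425988_a_at, averaged 389.1 ± 54.8 in the EBF arrays and 360.6 ± 17.8 in the controls (SD, n = 3 each), both below the highest Bacillus control, with a log2 difference of 0.09 ± 0.10.

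Hipk3, which is known to phosphorylate the death receptor adaptor Fadd, also had overlapping groups. Its brighter probe set, 1426819_at, read 2323.4, 2474.1 and 3267.3 in EBF 1 to 3, against 3003.6, 2841.1 and 3185.7 in control 1 to 3. EBF 1 and EBF 2 lay below every control and EBF 3 above every control, and the log2 difference was -0.18 ± 0.13. Without EBF 3 it was -0.32. Probe set 1419191_at averaged 374.2 ± 18.1 in the EBF arrays and 389.3 ± 29.4 in the controls (SD, n = 3 each; log2 -0.05 ± 0.08). Both means were below the highest Bacillus control.

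Upstream sequences of the Hipk2 and Hipk3 genes are shown because Hipk2 held the large differences and Hipk3 shares a motif match with it. EBF is known to bind a palindrome whose centre is CCCNNGGG, preceded by T and followed by A in its full form. All 4 Hipk genes were matched by symbol to RefSeq start sites of build GRCm38.p6, giving 6 windows of 300 bases, from 250 bases before to 50 after each start. The form with 1 flank, TCCCNNGGG on either strand, was in 1 Hipk2 window and in the Hipk3 window, against 6.56% of 32851 windows of all genes. The core CCCNNGGG, which lies within that form and reads the same on both strands, occurred at 2 places in that Hipk2 window and at 1 in the Hipk3 window, against 13.7% of all. Hipk1, Hipk4 and the other Hipk2 window held 0 matches to either. The 250 bases upstream of the start are printed 5′ to 3′ on the gene's strand, with the core in capitals.
Hipk2, chr6:38876191-38876440, minus strand: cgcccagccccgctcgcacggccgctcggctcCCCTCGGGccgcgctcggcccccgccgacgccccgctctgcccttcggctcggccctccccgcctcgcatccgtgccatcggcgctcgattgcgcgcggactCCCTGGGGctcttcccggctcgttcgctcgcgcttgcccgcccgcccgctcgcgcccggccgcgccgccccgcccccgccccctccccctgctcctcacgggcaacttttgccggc
Hipk3, chr2:104494490-104494739, minus strand: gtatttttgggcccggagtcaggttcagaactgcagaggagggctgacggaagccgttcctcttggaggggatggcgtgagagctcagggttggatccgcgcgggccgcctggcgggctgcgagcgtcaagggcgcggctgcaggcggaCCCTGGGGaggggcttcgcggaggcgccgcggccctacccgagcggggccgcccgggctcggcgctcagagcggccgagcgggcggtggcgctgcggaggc
The Hipk2 matches begin 218 and 116 bases before the start and the Hipk3 match 101 bases before it. The second Hipk2 match and the Hipk3 match share the letters CCCTGGGG. These windows are rich in G and C (80.7% in Hipk2 and 76.0% in Hipk3), and so is the motif. A match is only a description of the letters. Whether a match bears on the Hipk2 differences, or on the overlapping groups of Hipk3, was not tested.

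Genes that act with the kinases, and their DYRK and CLK relatives, were read from 4 lists, each gene at its brightest probe set. Of 45 measured genes among 53 listed, 0 passed limma's adjusted threshold in either direction, where 1.09% of all 18193 genes passed. At an unadjusted p below 0.05 there were 6, of which 2 were higher and 4 lower, where 19.7% of all genes had such a p in either direction. With the replicate block 2 genes fell, Zyx and Runx1, where 2.52% of all genes fell. The differences of the 45 genes lay between -0.45 and 0.23 with a median of 0.00, against a median of 0.03 over all genes. EBF arrays lay above every control at 3 genes (Tcf7l1, Tcf7l2 and Ski) and below every control at 4 (Zyx, Pml, Sp100 and Pias4). Of all probe sets, 15.5% had EBF arrays above every control, and the share below every control is not given here.

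Among 11 measured ligases and regulators of the kinases, with a median of -0.10, the largest difference was that of Zyx. It encodes zyxin, a focal adhesion protein that binds human HIPK2. Zyx read 614.0, 567.4 and 540.5 in the EBF arrays and 780.5, 873.1 and 732.4 in the controls, so that every EBF array was below every control. The log2 difference was -0.45 ± 0.09 (SE; limma adjusted p = 0.0687, with the block 0.0146). Median scaling, quantile normalization, leaving out dim probe sets and leaving out EBF 3 each brought Zyx past the threshold (limma adjusted p = 0.0347, 0.0445, 0.0499 and 0.0366). A second Zyx probe set, whose mean over all arrays was below the highest Bacillus control, had a difference of -0.07 and overlapping groups. Nlk, a kinase that acts with Hipk2 on Myb, had -0.16 ± 0.08 (adjusted p = 0.342). Differences of the ubiquitin ligase genes were small: -0.11 for Siah1a, 0.02 for Siah2, 0.13 for Wsb1 and -0.05 for Mdm2.

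Of 6 measured nuclear body and SUMO partners, 0 passed limma's threshold and 2 had an unadjusted p below 0.05, both lower, against 19.7% of all genes with such a p. Pml, which builds the nuclear bodies where Hipk2 meets p53, averaged 1623.5 ± 92.7 in the EBF arrays and 2012.1 ± 276.3 in the controls (SD, n = 3 each; log2 -0.30 ± 0.11, limma adjusted p = 0.199). Sp100, another nuclear body protein, averaged 453.0 ± 28.4 in the EBF arrays and 556.4 ± 42.6 in the controls (log2 -0.28 ± 0.08, limma adjusted p = 0.156). At these probe sets the EBF arrays lay below every control, but neither gene passed, and neither did so with the block (limma adjusted p = 0.0543 and 0.057). The groups overlapped at the other Pml probe sets (-0.32 and, for a dim one, -0.00) and at the other, dim Sp100 probe set (-0.13). Daxx had 0.03.

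Of 19 measured transcription partners and substrates, 0 passed limma's threshold and 3 had an unadjusted p below 0.05 (19.7% of all genes did), with a list median of 0.00. Runx1, a blood transcription factor that Hipk2 phosphorylates, read 2406.5, 1995.8 and 1707.0 in EBF 1 to 3, against 2906.8, 2489.0 and 2298.4 in control 1 to 3. The groups overlapped, but each EBF array was below the control of its own number. The log2 difference was -0.34 ± 0.13 (limma adjusted p = 0.234, with the block 0.0323). The other Runx1 probe sets ranged from -0.29, with separate groups, to 0.10 at a dim one, and none passed with or without the block. Tcf7l1, a repressor of Wnt target genes, had 0.23 ± 0.08 at its brightest probe set, with separate groups (limma adjusted p = 0.181). Its other probe set was dim and had -0.11, with overlapping groups. The corepressor genes Ctbp1 and Ctbp2 had -0.04 and -0.09, and Myb had 0.03. The 9 measured DYRK and CLK kinase genes, the nearest relatives of the Hipk genes, ranged from -0.04 to 0.16 with a median of 0.07. Of these, 0 passed limma's threshold and 0 had an unadjusted p below 0.05. The smallest p were those of Prpf4b and Clk2, splicing kinases with 0.16 each.

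**Figure D5:**
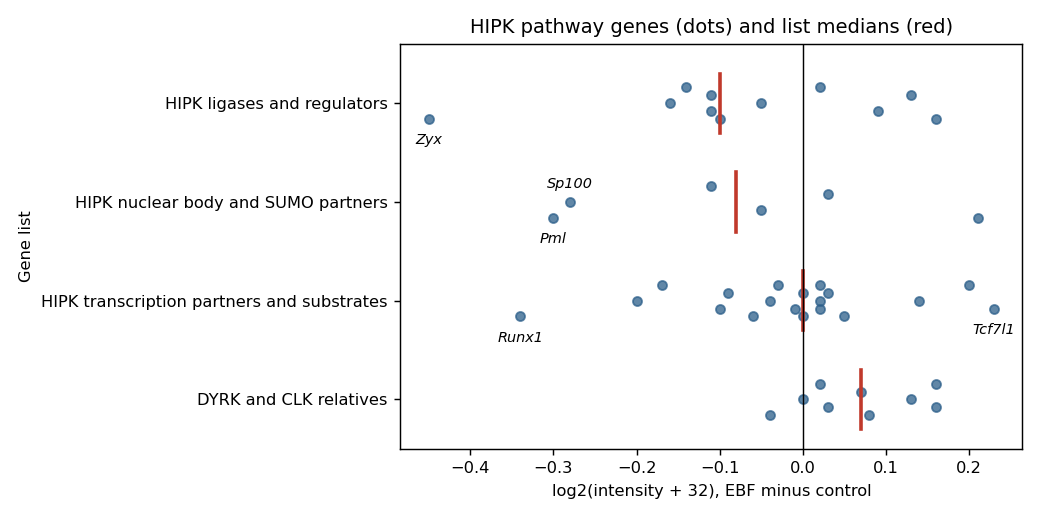
EBF minus control difference on the log2(intensity + 32) scale for the 45 measured genes of 4 lists (rows), a dot per gene at its brightest probe set and a red bar at the list median. Zyx (-0.45), Runx1 (-0.34), Pml (-0.30) and Sp100 (-0.28) lie furthest to the left, and 0 of the genes passed limma's adjusted threshold.

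Among 20 measured p53 target genes, 1 fell and 0 rose, where 0.671% of all genes fell and 0.418% rose. It was Pmaip1, which encodes the pro-apoptotic protein Noxa. Pmaip1 read 1302.4, 1428.8 and 1292.4 in the EBF arrays and 2329.9, 3325.7 and 2255.8 in the controls (log2 -0.94 ± 0.14, limma adjusted p = 0.0274). The call was lost without EBF 1, EBF 2 or control 1 (limma adjusted p = 0.109, 0.107 and 0.072). Of the other targets, Cdkn1a had -0.21, Trp53inp1 -0.20 and Bbc3, which encodes Puma, 0.27, none of which passed. Apaf1 had -0.33 and Phlda3 0.30, and neither passed. At an unadjusted p below 0.05 there were 7 of the 20, with 3 higher and 4 lower, where 19.7% of all genes had such a p. The list median was -0.03. With the block Perp, which encodes a membrane protein, rose as well (0.30, limma adjusted p = 0.0497), where 4.82% of all genes rose. Perp was dim, with means of 225.1 in the EBF arrays and 177.3 in the controls. It was 1 of 6 targets in this list below the highest Bacillus control.

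Markers of other cells moved with the groups in part. Summed intensities are set against each other between arrays only. The GFP sort would remove cells without the virus, but whether ST2 cells took up the virus is not known here. The summed intensity of 10 measured NK genes was 4138 to 5245 in the EBF arrays and 5846 to 7534 in the controls. Klrd1 and Nkg7 fell and Gzma rose, and 6 of the 10 were below the highest Bacillus control, the receptor gene Ncr1 among them. For 12 stromal genes the sum was 15799 to 23516 in the EBF arrays and 18195 to 31501 in the controls. Only 1 of the 12, Pdgfrb, was below the highest Bacillus control, and how many stromal cells passed the sort was not tested. The sums overlapped between groups, and 0 of the stromal genes passed limma's threshold, although 2 were lower at an unadjusted p below 0.05, and 1, Thy1, fell with the block. Sums of 9 T cell genes were 6921 to 7837 in the EBF arrays and 7023 to 8035 in the controls, with 0 passing and 2 at an unadjusted p below 0.05, where for both lists the share over all genes was 19.7%. Those of 11 myeloid genes were 6235 to 6571 in the EBF arrays and 6324 to 6958 in the controls, and of these Lyz2 fell. Below the highest Bacillus control were 4 of the T cell genes and 5 of the myeloid genes. Among the pro-B genes Vpreb3 rose and Dntt and Kit fell, and with the block Igll1, Il7r and Cd79b rose too (limma adjusted p = 0.00409, 0.0224 and 0.0191). For every marker list, the share over all genes was 0.418% risen and 0.671% fallen, and with the block 4.82% and 2.52%. The sum of the 13 was 76265 to 78091 in the EBF arrays and 67380 to 69780 in the controls. Of 5 measured genes that depend on Pax5 in B cells, Ms4a1 rose, and Blnk and Cr2 were below the highest Bacillus control. The part of these differences in the Hipk2 values was not tested.

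Genes whose pattern over the 6 arrays was most like that of the brightest probe set of each Hipk gene were found by Pearson correlation of log2(intensity + 32) among 11015 genes. For Hipk2 1448631_a_at they were Utp14b (r = 0.999), Mbl1 (0.998) and Mapk12 (0.995). For Hipk1 1424540_at they were Prickle2 (0.966), Cpe (0.959) and Zfp871 (0.956). Those for Hipk3 1426819_at were Smim8 (0.995), Dennd4a (0.993) and Bloc1s5 (0.992). Since 1448631_a_at is not among the Hipk2 probe sets with a large difference, the search was repeated after the values were seen with 1428433_at, giving Cep57l1, Chchd10 and Mcm10 (0.997 each). Chchd10 had 6639.6, 6209.1 and 6595.1 in the EBF arrays and 4126.0, 3766.8 and 4294.4 in the controls, with the same order of arrays within the controls as 1428433_at. With 6 arrays and so many genes, such correlations arise readily, and they describe these arrays only.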

How the data were processed

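The 6 arrays were made from biotin-labelled cRNA of 6 microg total RNA, per the labels' protocols. The design text names a rat array, but the organism label and the platform's probe table are those of the mouse. The deposited intensities are linear values per probe set. How they were background corrected and normalized, and by what software, is not given in the sources used here. No further scaling was applied, because the 2% trimmed means of the arrays differed by less than 5% (highest over lowest 1.035). The number of arrays limits the precision.

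After 64 Affymetrix control probe sets were dropped, 45037 were left. The platform table gave 34945 of the rest 1 symbol, 932 several and 9160 no listed gene, and 34741 of the probe sets with 1 symbol had a gene ID found in RefSeq. A two-sided moderated test (lmFit, then eBayes) of EBF against control on log2(intensity + 32), with no other term, was run in limma 3.58.1 under R 4.3.3. Its p-values were Benjamini-Hochberg adjusted over all 45037 probe sets at a threshold of 0.05. The fit was also run on simulated arrays with independent noise, which cannot show its error rate on these arrays. The labels do not say that replicates were separate cultures, so p-values may measure technical spread.

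After group means were subtracted, arrays with the same number correlated at 0.316, 0.251 and 0.505. Arrays of the 2 groups with different numbers correlated at -0.37 to 0.065. Subtracting the mean of 3 arrays ties these values to each other, so they do not test the pairing. The replicate numbers were taken as pairs, a pairing read from the data and not from the labels. The members and lists were chosen with earlier results of these data known. The named genes were every Hipk probe set, the 2 largest increases and 2 largest decreases past the threshold in each list (or the 2 smallest p where 0 passed), and the 3 genes most like each Hipk gene. Other genes were named after their values were seen. Listed genes that were not matched, Trp53 among them, were not analysed here.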

Additional observations from a re-analysis of the deposited data

How the results depend on the processing

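The 4 Hipk2 probe sets with large differences kept their direction under all 13 alternatives. Leaving out arrays could not turn it, since every EBF array was above every control there. Their log2 differences ranged from 1.26 to 1.58 (1424863_a_at), 1.19 to 1.37 (1428433_at), 1.05 to 1.22 (1456022_at) and 0.86 to 1.13 (1425983_x_at). Probe set 1428433_at moved by more than the spread between replicates without EBF 3 and control 2 together (1.19). Among the small differences, 1425988_a_at of Hipk1 stood at -0.00 without EBF 1 and 1419191_at of Hipk3 at 0.01 without control 1, and no other Hipk direction turned. The count of Hipk probe sets past the threshold was 4, ranged from 2 to 7 when 1 array was left out, and was 5 with the replicate block. Dropping EBF 2 or control 2 reduced it to 2, and dropping control 1 to 3. Dropping EBF 3 raised it to 7, with 6 Hipk2 probe sets higher and 1426819_at of Hipk3 lower (-0.32). For these 4 arrays the total over all 45037 probe sets moved in the same direction. From 394 it rose to 4287 once EBF 3 was dropped. It fell to 79 for EBF 2, 83 for control 2 and 95 for control 1. The changes in the Hipk count are therefore not read as particular to the Hipk genes. Probe set 1424863_a_at lost the call without EBF 2 (1.35) or control 2 (1.33), and 1425983_x_at without EBF 2, control 1 or control 2 (0.99 in each case).

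Over all probe sets the count was 394, 3280 with the replicate block (2199 higher, 1081 lower), 1887 without EBF 3 and control 2 together, and 79 (without EBF 2) to 4287 (without EBF 3) with 1 array left out. Leaving out EBF 1 gave 119, and leaving out control 1, 2 or 3 gave 95, 83 and 214. Of the 45 genes of the 4 HIPK lists, relatives included, 0 passed. The count was 1 with median scaling, 1 with quantile normalization, 1 without dim probe sets and 2 with the replicate block, and 0 to 2 with 1 array left out (2 without EBF 3). The cause of these changes was not tested. Lower calls of Dntt, Kit and Lyz2 and the higher call of Vpreb3 were each lost without some single arrays (highest limma adjusted p 0.106, 0.0995, 0.101 and 0.0635). Among the genes of the lists, the replicate block changed the calls of Zyx, Runx1, Perp, Igll1, Il7r, Cd79b and Thy1 and no others.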
